A study of Rattus norvegicus with 2 samples.

Results

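The collagen genes were taken as every gene of the deposited tables whose symbol is Col, a number, the letter a and a number, which gave 43 of the 32883 genes listed. Their mRNA was counted in single cells of the hypothalamus (the area of the AVPV and the ARC) of female Sprague Dawley rats at PND 29. Animals named SC300 had received estradiol benzoate (EB), an estrogen, from a silicone capsule loaded with 300 µg and implanted at PND 0.5. For the Control animals the methods describe a capsule filled with oil, whereas the labels use the word intact, and which of these holds could not be settled here. Each group is a single 10x Genomics 3′ library made from the pooled tissue of 3 rats, dissociated with collagenase. Variation between animals therefore cannot be measured, and no test of SC300 against Control was possible.

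Collagens are the main fibrous proteins outside cells, and each molecule is a triple helix of chains that separate genes encode. Fibrillar collagens form the fibrils of connective tissue, collagen IV forms the mesh of basement membranes, and the fibril-associated, transmembrane and multiplexin types link fibrils, cells and basement membranes to each other. The brain has little fibrillar collagen outside its coverings and larger vessels, and its best known collagen is the collagen IV of the vascular basement membrane, which endothelial cells and pericytes lay down. Only mRNA was measured here, not protein.

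Cells were assigned to gates by marker genes that include no collagen. The 13 gates with at least 10 cells in each library held between 13 and 1185 cells. All 12 marker lists that name a gate had their highest summed level in that gate in both libraries. The same lists set the gates, so this is not an independent check of them. The gate called endothelial with pericyte held cells with markers of both lists, so it is not 1 cell type. The libraries held 4296 and 4379 cells with median depths of 7986 and 8182 UMIs (unique molecular identifiers, each standing for a captured mRNA molecule), and shared 7 barcodes. Levels are given as CPM, the UMIs of a gene over all cells of a gate scaled to a common total of UMIs. Paired values are given for Control first and SC300 second. Every interval is an exact 95% interval that covers counting error only. For a share of cells this is the error of drawing cells within 1 library, and cells are not replicates of a group. Collagen genes took 28851 UMIs in Control (0.0561% of all UMIs) and 32673 UMIs in SC300 (0.0579%). At least 1 UMI was counted for 42 of the 43 genes, the exception being *Col28a1*, and 25 genes had at least 50 UMIs over both libraries in a gate.

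The gates differed far more in collagen mRNA than the libraries did. All collagen genes summed to 11406 CPM and 9623 CPM in stromal cells, which build the connective tissue of the brain's coverings and vessels. Pericytes, the contractile cells that wrap capillaries, followed with 5108 CPM and 4396 CPM. The sum was 1629 CPM and 1678 CPM in endothelial cells with pericytes, 1261 CPM and 1270.5 CPM in oligodendrocyte precursors and 829.5 CPM and 699 CPM in astrocytes. Neurons had 71.5 CPM and 71.6 CPM, below every other gate except the 15 macrophages of Control. Of 21 genes with at least 50 UMIs in a gate in each library, 18 had the same highest gate in both libraries. The exceptions were *Col4a3*, *Col5a2* and *Col9a3*, for each of which the intervals of the first and second gate overlapped in both libraries. Among the 18, these intervals also overlapped in both libraries for *Col6a2*, *Col9a2* and *Col25a1*. They overlapped in Control alone for *Col7a1* and in SC300 alone for *Col4a2* and *Col16a1*. The same share over all genes was not computed, so the agreement is not read as particular to collagen genes.

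**Figure D1:**
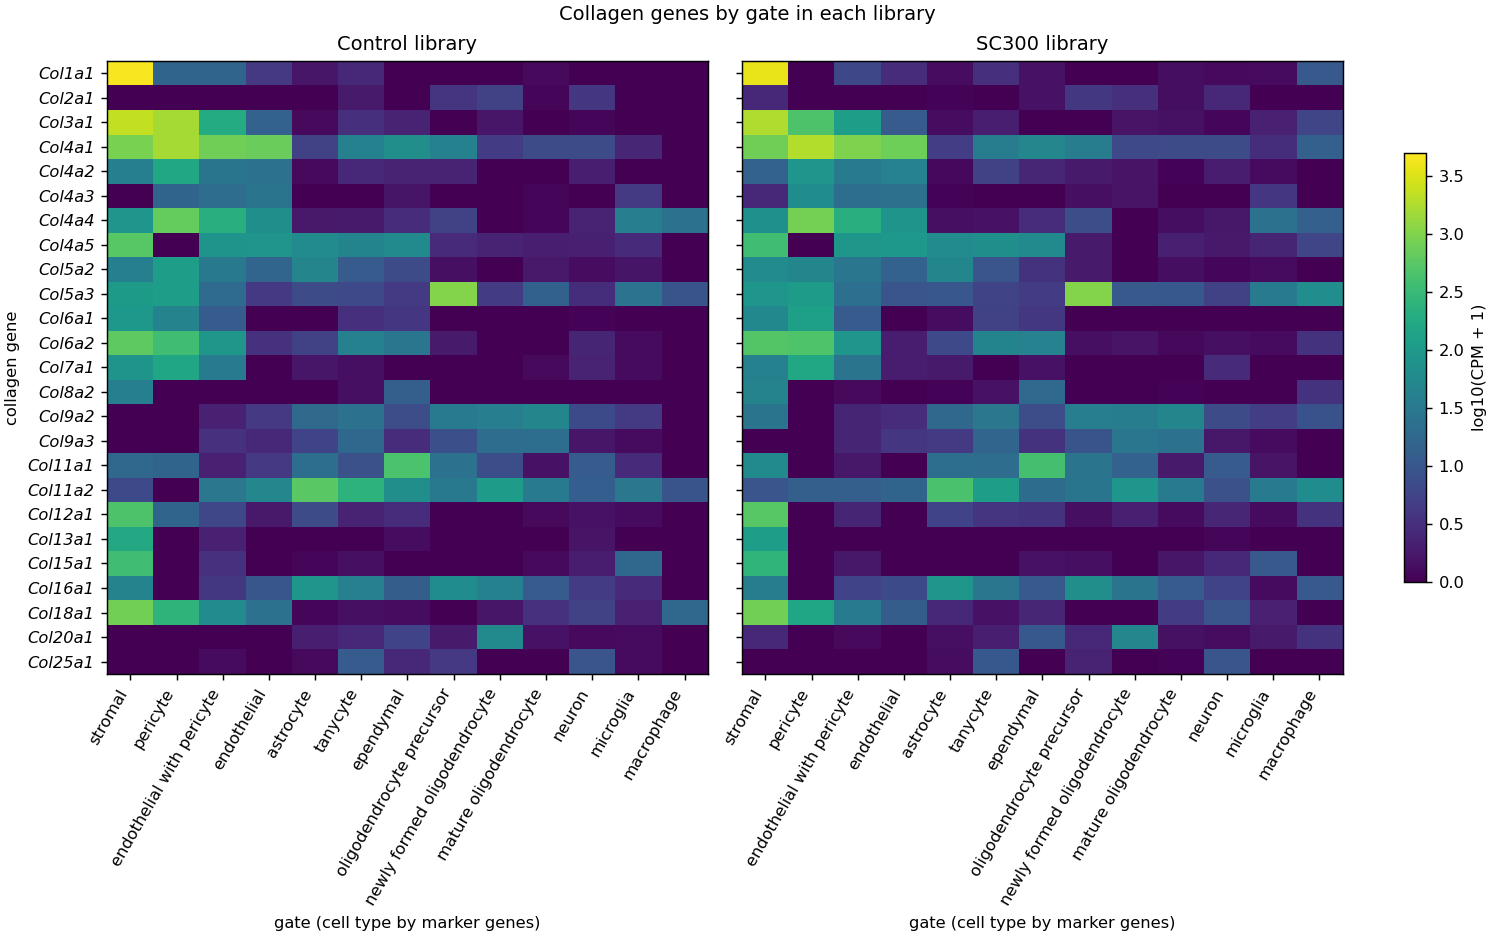
Colour shows log10(CPM + 1) of the 25 named collagen genes (rows) in the 13 gates (columns), with Control in the left panel and SC300 in the right panel. Both panels show the same blocks, with *Col1a1* in stromal cells (4612 CPM and 3772 CPM), *Col5a3* in oligodendrocyte precursors (1027 CPM and 1033 CPM) and *Col11a2* in astrocytes (564 CPM and 433 CPM).

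Among the fibrillar genes, *Col1a1* and *Col3a1* were highest in the stromal gate. *Col1a1*, which encodes the main chain of collagen I, had 845 UMIs in 13 stromal cells of Control, or 4612 CPM (4306 to 4933), and 2209 UMIs in 38 stromal cells of SC300, or 3772 CPM (3616 to 3932). Every stromal cell of both libraries had a *Col1a1* UMI, and the gate held 85.9% and 90.1% of all *Col1a1* UMIs. The next level of *Col1a1* was 14.8 CPM in pericytes of Control (1 UMI) and 9.93 CPM in macrophages of SC300 (4 UMIs).

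*Col3a1*, the single chain of collagen III, was at 2254 CPM (2042 to 2482) in stromal cells of Control and 1799.6 CPM (1693 to 1912) in those of SC300. Unlike *Col1a1*, it was also counted often in pericytes, at 1609 CPM (1321 to 1941) in Control and 469 CPM (332 to 644) in SC300. The stromal gate carried 4912 CPM and 3941 CPM of the pericyte markers and 2783 CPM and 1974 CPM of the endothelial markers, and the pericyte gate 4178 CPM and 5742 CPM of the stromal markers. The part of such mixing in the stromal and pericyte values was not tested.

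*Col1a2*, the partner chain of collagen I, was almost uncounted. In stromal cells it had 5 UMIs in Control, 0.588% (0.191% to 1.37%) of the pair's UMIs, and 23 UMIs in SC300, 1.03% (0.654% to 1.54%). Each transcript is read at its 3′ end, and counts of different genes need not share a scale. Levels are therefore compared between gates and libraries of the same gene, and the share of a pair between gates and libraries of the same pair. In the rat assembly GRCr8 the span of *Col1a1* overlaps that of *Sgca*, which had 3 UMIs and 6 UMIs in stromal cells.

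Collagen IV genes were highest in vessel or stromal gates. *Col4a1*, a chain of the collagen IV found in nearly every basement membrane, was at 1565 CPM (1281 to 1893) in pericytes of Control and 1852 CPM (1568 to 2174) in those of SC300. Stromal cells had 906 CPM and 797 CPM. Endothelial cells had 722 CPM (676 to 771) and 761 CPM (709 to 816), and endothelial cells with pericytes had 792 CPM (762 to 823) and 971 CPM (941 to 1001). A *Col4a1* UMI was found in 95.1% and 93.0% of endothelial cells, at median depths of 4908 and 5987 UMIs per cell. In microglia, which are not known to build vascular basement membrane, the share was 1.13% and 1.64% at 7375 and 7990.5 UMIs per cell. After every cell was thinned to 2000 UMIs the shares were 73.5% and 72.5% in endothelial cells. In microglia they were 0.706% in Control and 0 of 419 cells in SC300, where 3 cells would be 0.716% and the exact interval reaches 0.877%.

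*Col4a2* encodes the chain that joins *Col4a1* chains in a helix. It was also highest in pericytes, at 162 CPM (11 UMIs) in Control and 86.4 CPM (7 UMIs) in SC300, where the interval overlapped that of endothelial cells. Endothelial cells had 23.9 CPM and 42.0 CPM and endothelial cells with pericytes 26.0 CPM and 33.0 CPM. *Col4a2* took 3.18% (2.55% to 3.91%) of the UMIs of the *Col4a1* and *Col4a2* pair in endothelial cells with pericytes of Control and 3.29% (2.76% to 3.88%) in those of SC300.

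*Col4a4*, which belongs to a collagen IV best known from the kidney filter, was highest in pericytes, at 664 CPM (485 to 889) in Control and 839.7 CPM (652 to 1065) in SC300. It was found in 70.8% and 73.9% of the 24 and 23 pericytes. Endothelial cells with pericytes had 211 CPM and 211 CPM of *Col4a4*, and endothelial cells without enough pericyte markers 67.6 CPM and 80.2 CPM. The level was thus higher in each gate with pericytes than in endothelial cells alone. Microglia had 36.6 CPM and 22.8 CPM, while astrocytes had 0.791 CPM and 0.415 CPM. *Col4a3*, its partner chain, had 20.3 CPM and 20.6 CPM in endothelial cells with pericytes, where *Col4a4* took 91.2% (89.0% to 93.1%) and 91.1% (89.1% to 92.8%) of the pair.

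*Col4a5* had another distribution. It was highest in stromal cells, at 551 CPM (449 to 669.8) in Control and 371 CPM (323 to 423) in SC300, and had 0 UMIs in pericytes of both libraries, where 3 UMIs would be 44.3 CPM and 37.0 CPM. Endothelial cells had 84.3 CPM and 92.6 CPM, and endothelial cells with pericytes 82.3 CPM and 89.5 CPM. Unlike *Col4a4*, *Col4a5* was also counted in the astroglial gates, at 59.2 CPM and 60.8 CPM in astrocytes, 58.0 CPM and 56.3 CPM in ependymal cells and 45.1 CPM and 68.9 CPM in tanycytes. *Col4a4* had less than 2 CPM in these 3 gates. *Col4a6*, the neighbour of *Col4a5* on chromosome X, had 130 UMIs in all and did not reach 50 in a gate.

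The 6 collagen IV genes lie as 3 pairs whose members run in opposite directions. To show how close the members of a pair lie, the bases between or before their starts are given for *Col4a1* with *Col4a2* and for *Col4a3* with *Col4a4*. In GRCr8, by RefSeq, the starts of *Col4a1* and *Col4a2* are 77 bases apart and those of *Col4a3* and *Col4a4* 413 bases, while those of *Col4a5* and *Col4a6* are 1415 bases apart. The first sequence holds the 76 bases between the starts (chr16:84885521-84885596) and the second the 250 bases before the start of *Col4a3* (chr9:91323740-91323989), both on the plus strand. Capitals mark the letters GGGCGG, the core of a GC box, or CCGCCC where it lies on the other strand.
Col4a1-Col4a2: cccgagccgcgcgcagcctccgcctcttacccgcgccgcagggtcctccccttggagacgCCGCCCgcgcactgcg
Col4a3-Col4a4: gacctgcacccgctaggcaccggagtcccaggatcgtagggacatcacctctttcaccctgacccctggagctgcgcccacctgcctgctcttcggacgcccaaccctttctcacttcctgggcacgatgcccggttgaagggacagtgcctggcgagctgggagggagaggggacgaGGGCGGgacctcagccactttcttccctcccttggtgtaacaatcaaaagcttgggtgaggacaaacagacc
The first sequence was 78.9% G or C and the second 62%. Each held 1 match to GGGCGG over both strands, a motif found in 19.3% of 27457 promoter windows of 76 bases and 32.4% of those of 250 bases. Neither held the letters CCAAT (12.96% and 34.3% of windows) or TATAAA (4.78% and 13.1%) on either strand, and the motifs do not overlap in these sequences.

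**Figure D2:**
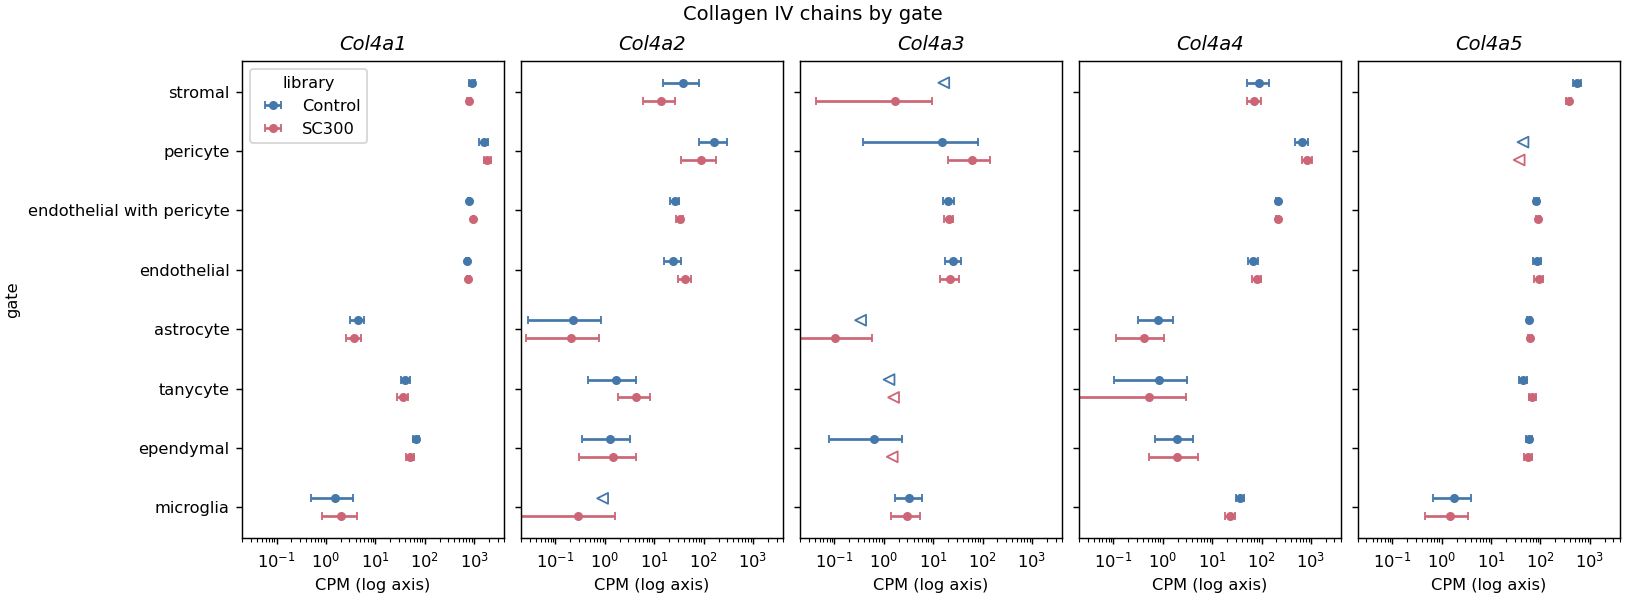
CPM of 5 collagen IV genes on a log axis in 8 gates, by library. Points are the level in 1 library, bars are exact 95% counting intervals, and open triangles mark the level of 3 UMIs where a gene had none. *Col4a1* (1565 CPM and 1852 CPM) and *Col4a4* (664 CPM and 839.7 CPM) are highest in pericytes, and *Col4a5* has no UMI there.

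Other genes of vessels and coverings had their highest level in stromal cells. *Col12a1*, a fibril-associated chain, was at 469 CPM (375 to 579.7) in stromal cells of Control and 545 CPM (487 to 608) in those of SC300. *Col18a1*, which encodes the basement membrane collagen that releases endostatin, was at 808 CPM (683 to 949) and 806 CPM (735 to 882). *Col15a1*, its fellow multiplexin, was at 371 CPM (288 to 470.5) and 265 CPM (225 to 309.7). *Col13a1*, a transmembrane collagen, was at 169 CPM (31 UMIs) and 118 CPM (69 UMIs), and each other gate had less than 2 CPM of it in both libraries.

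*Col6a2*, a chain of the beaded filaments that surround basement membranes, was at 611 CPM and 512 CPM in stromal cells and 369 CPM and 482 CPM in pericytes, with overlapping intervals in both libraries. *Col6a1*, its partner chain, had 10.8 CPM and 10.7 CPM in endothelial cells with pericytes, where *Col6a2* took 89.3% (85.4% to 92.4%) and 88.9% (85.4% to 91.8%) of the pair. *Col7a1*, the anchoring fibril chain best known from skin, had 148 CPM (10 UMIs) and 161 CPM (13 UMIs) in pericytes and 33.5 CPM and 25.9 CPM in endothelial cells with pericytes. *Col8a2*, a chain of short network-forming collagen, had 12.2 CPM and 17.3 CPM in ependymal cells, beside 38.2 CPM (7 UMIs) and 44.4 CPM (26 UMIs) in stromal cells.

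Several collagen genes were highest in glia. *Col5a3*, a chain of collagen V, was counted mostly in oligodendrocyte precursors. It had 2339 UMIs there in Control, or 1027 CPM (985 to 1069), and 2415 UMIs in SC300, or 1033 CPM (992 to 1075), which were 81.3% and 76.4% of its UMIs. The next gate was pericytes, with 118 CPM (8 UMIs) and 111 CPM (9 UMIs). A *Col5a3* UMI was found in 95.04% and 98.8% of precursor cells at median depths of 6519 and 6821 UMIs, and in 4.47% and 6.58% of astrocytes at 6597 and 6682 UMIs. With each cell thinned to 2000 UMIs the shares were 81.3% and 81.6% against 1.20% and 1.48%. Newly formed oligodendrocytes, the short stage between precursor and myelinating cell, had 3.43 CPM and 9.81 CPM.

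Newly formed oligodendrocytes were the highest gate of *Col20a1*, a fibril-associated chain. It was at 57.0 CPM (45.4 to 70.6) there in Control and 51.3 CPM (41.4 to 62.7) in SC300, and the next gate, ependymal cells, had 4.48 CPM and 9.38 CPM. Its span overlaps that of *Chrna4*, a nicotinic receptor subunit, in GRCr8. *Chrna4* had 2.75 CPM and 5.997 CPM in newly formed oligodendrocytes and 10.4 CPM and 13.1 CPM in neurons, where *Col20a1* had 0.254 CPM and 0.324 CPM.

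*Col9a2* and *Col9a3* encode chains of collagen IX, which coats cartilage fibrils. *Col9a2* was at 48.8 CPM (44.0 to 53.9) in mature oligodendrocytes of Control and 49.1 CPM (45.0 to 53.6) in those of SC300. It was present at each stage of the lineage, with 37.8 CPM and 34.9 CPM in newly formed oligodendrocytes and 31.6 CPM and 36.8 CPM in precursors. *Col9a3* was at 20.6 CPM and 24.0 CPM in mature and 19.9 CPM and 27.8 CPM in newly formed oligodendrocytes, and lower in precursors, at 7.02 CPM and 8.12 CPM. Tanycytes, which line the floor of the third ventricle, had 23.8 CPM and 27.9 CPM of *Col9a2* and 17.0 CPM and 15.2 CPM of *Col9a3*.

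*Col11a1* and *Col11a2*, which encode chains of collagen XI, a fibril-forming type known from cartilage, had their highest levels in different gates. *Col11a2* was highest in astrocytes, with 4987 UMIs in Control, or 564 CPM (548 to 579.6), and 4170 UMIs in SC300, or 433 CPM (419.9 to 446). It was found in 88.3% and 82.5% of astrocytes, and in 14.7% and 16.8% of microglia. With cells thinned to 2000 UMIs the shares were 61.2% and 52.1% in astrocytes and 5.88% and 5.25% in microglia. Microglia, which are not known to make collagen XI, had 27.9 CPM and 31.2 CPM, given for comparison. This level is not a floor for other gates, since neurons had 11.8 CPM and 7.36 CPM. Whether a gate near or below it made *Col11a2* itself was not tested. Tanycytes followed astrocytes with 249.7 CPM and 116 CPM, and newly formed oligodendrocytes with 106 CPM and 88.3 CPM.

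*Col11a1* was highest in ependymal cells, the ciliated lining of the ventricle, with 1396 UMIs in Control, or 447 CPM (424 to 471), and 814 UMIs in SC300, or 402 CPM (375 to 430.4). It was found in 53.5% and 52.6% of ependymal cells at median depths of 12703 and 12470 UMIs, and in 1.36% and 0.234% of microglia. Astrocytes had 20.6 CPM and 20.7 CPM of *Col11a1*, and *Col11a2* took 96.5% (95.9% to 97.0%) and 95.4% (94.8% to 96.0%) of the pair there. In ependymal cells that share was 13.1% (11.46% to 14.8%) and 4.57% (3.27% to 6.20%). Other gates lay between, with 51.7% and 41.4% in neurons and 56.9% and 50.4% in oligodendrocyte precursors.

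**Figure D3:**
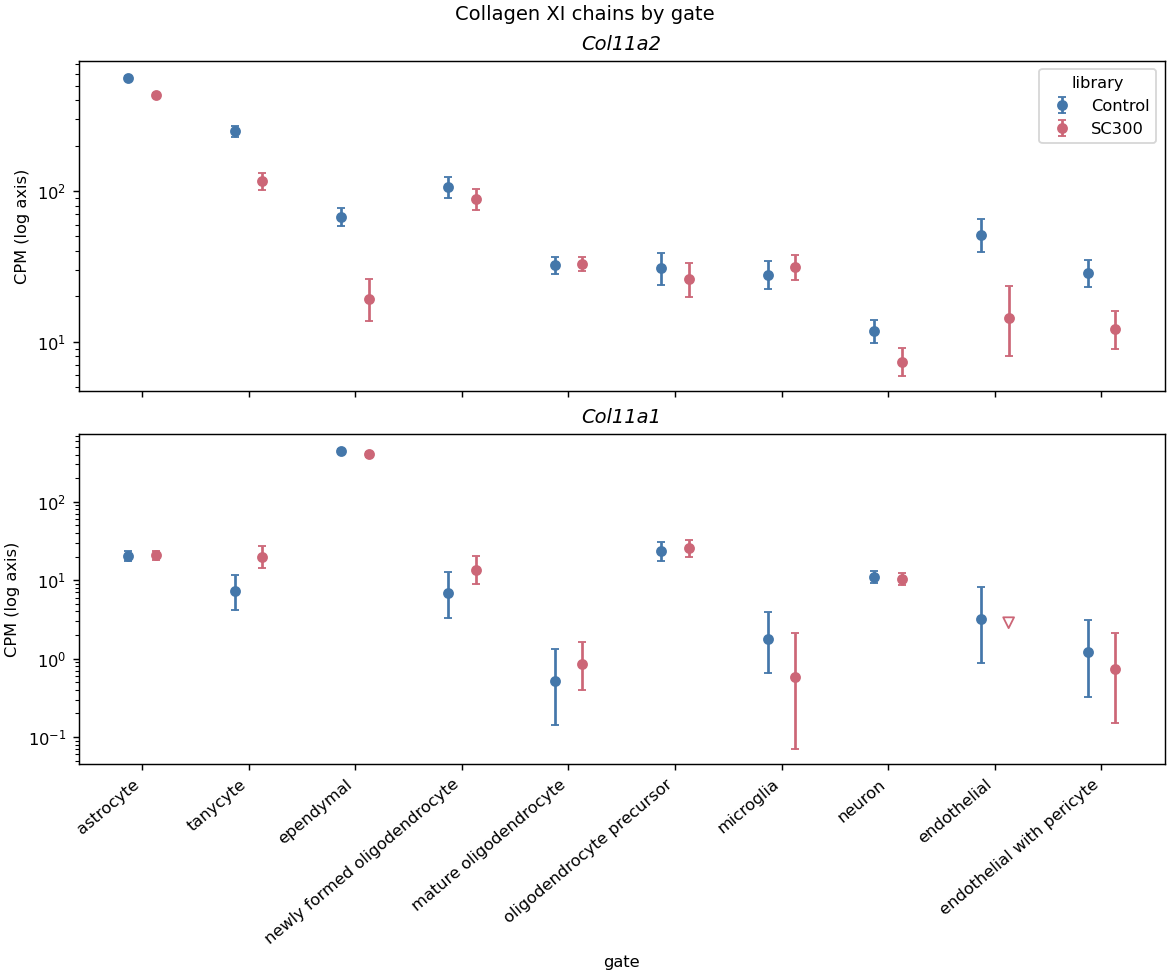
CPM of *Col11a2* (top) and *Col11a1* (bottom) on log axes in 10 gates, by library, with exact 95% counting intervals as bars and an open triangle at the level of 3 UMIs where there was none. *Col11a2* leads in astrocytes and *Col11a1* in ependymal cells, and the SC300 point of *Col11a2* lies below that of Control in tanycytes (116 CPM against 249.7 CPM) and ependymal cells (19.2 CPM against 67.2 CPM) but not in mature oligodendrocytes (33.0 CPM against 32.3 CPM).

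*Col16a1* and *Col5a2* were counted most often in astrocytes too. *Col16a1*, a fibril-associated chain, was at 87.9 CPM (81.9 to 94.3) in astrocytes of Control and 82.9 CPM (77.2 to 88.8) in those of SC300, followed by precursors with 61.0 CPM and 67.1 CPM. *Col5a2*, a collagen V chain, was at 46.6 CPM and 49.0 CPM in astrocytes. Pericytes had 118 CPM (8 UMIs) and 49.4 CPM (4 UMIs) of *Col5a2*, and stromal cells 38.2 CPM (7 UMIs) and 59.8 CPM (35 UMIs).

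Neurons had at most 11.8 CPM of any collagen gene (*Col11a2* in Control). *Col25a1*, a transmembrane collagen known from amyloid plaques, had 100 UMIs in neurons of Control, or 8.46 CPM (6.88 to 10.3), and 103 UMIs in those of SC300, or 8.33 CPM (6.80 to 10.1), which were 67.6% and 76.3% of its UMIs. Tanycytes had a similar level, 11.1 CPM and 9.46 CPM. Neurons with UMIs of *Slc32a1*, a GABA transporter, and none of *Slc17a6*, a glutamate transporter, had 10.1 CPM and 9.82 CPM of *Col25a1*, and neurons with *Slc17a6* alone had 6.66 CPM and 8.49 CPM, with overlapping intervals. These neuron subsets were chosen after values had been seen. *Col2a1*, the chain of cartilage collagen II, had 33 UMIs and 20 UMIs in neurons, at 2.79 CPM and 1.62 CPM.

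The 18 genes under 50 UMIs in every gate had between 0 and 130 UMIs in all. Among them, *Col22a1* had 11.48 CPM (27 UMIs) and 10.5 CPM (20 UMIs) in tanycytes. *Col26a1* had 36 UMIs in 9 of the 38 stromal cells of SC300, at 61.5 CPM, and 2 UMIs in stromal cells of Control, at 10.9 CPM. *Col1a2*, *Col5a1*, *Col8a1*, *Col9a1* and *Col27a1* had 46 to 89 UMIs in all, and *Col14a1*, *Col17a1*, *Col19a1* and *Col24a1* had 8 to 31. *Col6a4*, *Col6a5*, *Col6a6*, *Col10a1* and *Col23a1* had 1 to 3 UMIs, and no level is read from them.

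The comparison of SC300 with Control asked which of these genes differed after EB from soon after birth. With at least 50 UMIs over both libraries in a gate, 92 pairs of a collagen gene and a gate could be compared, and 72 of them lay within 1.5-fold. Another 13 pairs were over 1.5-fold lower in SC300, or 14.1%, where 4.21% of the 83433 pairs of all genes were. A further 7 pairs were over 1.5-fold higher, or 7.61%, where 3.80% of all pairs were. The median log2 ratio of SC300 over Control was -0.05 over the 92 pairs and -0.03 over all pairs. The pairs share genes and cells and so are not independent, and *Col11a2* alone supplied several of the lower pairs. The pairs of all genes were not matched to the collagen pairs in UMI count. The larger shares are therefore not read as particular to collagen genes. The interval of the ratio left out 0 for 12 of the 13 lower pairs and for all 7 higher pairs. These pairs were picked by the same counts, so this is not a separate check of them. The same share over called pairs of all genes is not given. In the text that follows, a gene is called lower or higher when it is over 1.5-fold apart, and ratios are log2 of SC300 over Control.

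**Figure D4:**
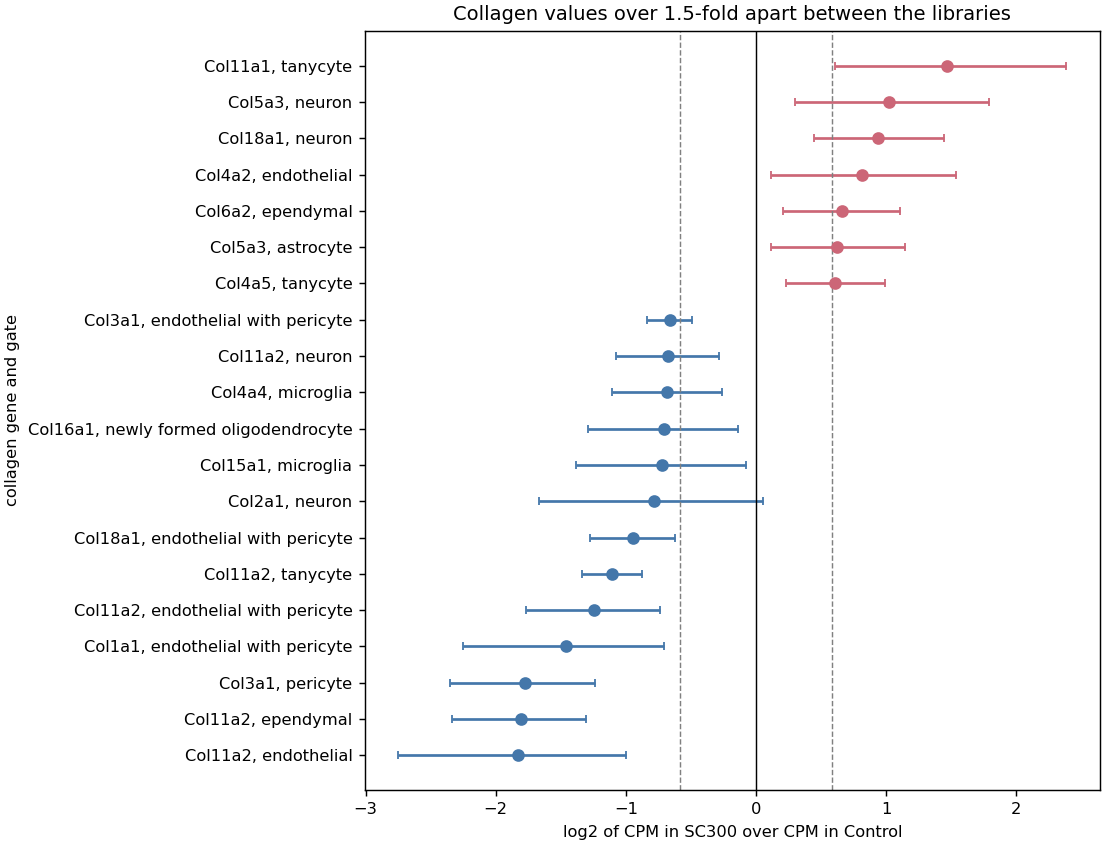
Log2 ratio of CPM in SC300 over CPM in Control for the 20 pairs of collagen gene and gate over 1.5-fold apart, with exact 95% counting intervals as bars and dashed lines at 1.5-fold. The 13 lower pairs lie left of 0 and the 7 higher pairs right of 0. *Col11a2* supplies 5 of the lower pairs, and the interval of *Col2a1* in neurons crosses 0.

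*Col11a2* supplied 5 of the 13 lower pairs, of which those in tanycytes and ependymal cells were furthest above the microglial level in Control. The tanycyte gate held 183 cells in Control and 107 in SC300, or 4.26% and 2.44% of cells, and the ependymal gate 127 and 95. Whether the kinds of cell within these gates differed between the libraries was not tested. In tanycytes *Col11a2* had 587 UMIs in Control, or 249.7 CPM (229.9 to 271), and 221 UMIs in SC300, or 116 CPM (101 to 133). The log2 ratio was -1.10 (-1.33 to -0.88), in a gate where 6.92% of all genes were called lower. In ependymal cells it had 210 UMIs in Control, or 67.2 CPM (58.5 to 77.0), and 39 UMIs in SC300, or 19.2 CPM (13.7 to 26.3), with a ratio of -1.80 (-2.34 to -1.31) where 6.06% of genes were called lower. The intervals of the libraries did not overlap in either gate, and the SC300 level in ependymal cells was below that of microglia. The share of cells with a UMI was 82.0% and 63.6% in tanycytes and 57.5% and 26.3% in ependymal cells at the full depth of each cell. After thinning to 2000 UMIs it was 36.0% (28.9% to 43.5%) and 24.8% (16.9% to 34.1%) in tanycytes, with overlapping intervals. In ependymal cells it was 20.5% (13.7% to 28.7%) and 5.38% (1.77% to 12.1%).

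In astrocytes, where *Col11a2* was most abundant, the ratio was -0.38 (-0.44 to -0.32), within 1.5-fold but with an interval below 0. The thinned share of astrocytes with a *Col11a2* UMI was 61.2% (58.1% to 64.3%) in Control and 52.1% (49.2% to 55.1%) in SC300. The gene was not called lower in mature oligodendrocytes (0.03, -0.21 to 0.27), microglia (0.16, -0.25 to 0.58), newly formed oligodendrocytes (-0.27, -0.60 to 0.06) or precursors (-0.24, -0.76 to 0.28).

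The other lower pairs of *Col11a2* lay nearer to the microglial level in Control, or below it. Endothelial cells had 50.9 CPM and 14.3 CPM, with a ratio of -1.83 (-2.75 to -1.002) where 5.13% of genes were called lower, but 3 cells held 54.7% of the 64 UMIs of Control. Endothelial cells with pericytes had 28.7 CPM and 12.1 CPM (-1.24, -1.77 to -0.74), and neurons 11.8 CPM and 7.36 CPM (-0.68, -1.07 to -0.28). The neuron ratio of *Col11a2* was 0.086 with every cell weighted alike and -0.44 without called doublets, within 1.5-fold in both cases.

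Astrocyte markers were counted in these gates, and their sums cannot tell mRNA of astrocytes from mRNA the gated cells made themselves. The 8 astrocyte markers summed to 18230.2 CPM and 16132 CPM in astrocytes, 1341 CPM and 1059 CPM in tanycytes and 1600.4 CPM and 1330.2 CPM in ependymal cells. They summed to 1150.5 CPM and 856 CPM in endothelial cells, 557 CPM and 588 CPM in endothelial cells with pericytes and 168 CPM and 105 CPM in neurons. All 8 had a UMI in each of these gates, except 7 in ependymal cells of SC300. Markers of other lists moved in tanycytes as well, with 3774 CPM and 4909.8 CPM of the tanycyte markers and 558 CPM and 1418 CPM of the smooth muscle markers. In ependymal cells the endothelial markers summed to 98.6 CPM and 12.3 CPM. In an alternative, cells of other gates with at least 1000 CPM of *Agt*, an astrocyte gene, were left out. The ratio of *Col11a2* was then -1.14 in tanycytes, -2.04 in ependymal cells, -1.01 in endothelial cells with pericytes and -0.33 in neurons. In endothelial cells, where *Col11a2* was also called lower, too few UMIs were left to give a ratio. That call was therefore not checked against *Agt*-rich cells. With every cell weighted alike the tanycyte ratio was -0.50, within 1.5-fold. Smooth muscle markers were lower in stromal cells (142 CPM and 382 CPM) and in endothelial cells with pericytes (81.1 CPM and 91.4 CPM) than in tanycytes. Which cells the smooth muscle, endothelial and other marker mRNA came from, and its part in these values, was not tested.

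In GRCr8, *Col11a2* lies within the RT1 region, the rat major histocompatibility complex, and the 4 genes that follow it are *Rxrb*, *Slc39a7*, *Hsd17b8* and *Ring1*. In tanycytes the ratios of these 4 genes ran from -0.47 (*Slc39a7*) to -0.11 (*Rxrb*), in ependymal cells from -0.09 (*Hsd17b8*) to 0.07 (*Rxrb*), and in astrocytes from -0.06 (*Ring1*) to 0.17 (*Rxrb*). None of the 4 was over 1.5-fold apart in these gates. The interval of *Slc39a7* left out 0 in tanycytes (-0.47, -0.75 to -0.20) and, in the other direction, in astrocytes (0.12, 0.01 to 0.23). *RT1-A2*, a class I gene at place 6 after *Col11a2*, was lower in astrocytes, at 23.1 CPM and 11.4 CPM (-1.01, -1.36 to -0.67), and within 1.5-fold in ependymal cells (0.25, -0.06 to 0.56) and tanycytes (-0.02, -0.71 to 0.65).

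*Col11a1* was higher in tanycytes, where *Col11a2* was lower. It had 17 UMIs in 12 tanycytes of Control, or 7.23 CPM (4.21 to 11.6), and 38 UMIs in 19 tanycytes of SC300, or 19.98 CPM (14.1 to 27.4). The ratio was 1.47 (0.61 to 2.38), where 5.57% of genes were called higher. In ependymal cells, the gate with most of its UMIs, the ratio of *Col11a1* was -0.15 (-0.28 to -0.03). Ependymal markers summed to 1300.1 CPM and 1353 CPM in tanycytes, and their part in the *Col11a1* value was not tested. *Col11a2* took 97.2% (95.5% to 98.4%) of the pair in tanycytes of Control and 85.3% (80.4% to 89.4%) in those of SC300.

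*Col4a5* in tanycytes was at 45.1 CPM (36.9 to 54.5) in Control and 68.9 CPM (57.6 to 81.7) in SC300, with a ratio of 0.61 (0.23 to 0.99). It was within 1.5-fold under 3 alternatives, at 0.34 with every cell weighted alike, 0.41 where the winning list led by 2 markers and 0.52 without the 3 cells richest in the gene. *Col6a2* in ependymal cells was at 26.9 CPM (21.5 to 33.3) and 42.4 CPM (34.0 to 52.4), with a ratio of 0.66 (0.21 to 1.11) where 3.43% of genes were called higher. It was within 1.5-fold with every cell weighted alike, at 0.39, and in cells with at most 20% mitochondrial UMIs, at 0.48. Stromal markers summed to 13.4 CPM and 37.5 CPM in ependymal cells (6 and 7 of 8 with a UMI), and their part was not tested. The ratios of *Col4a5* in ependymal cells (-0.04, -0.39 to 0.30) and of *Col6a2* in tanycytes (0.13, -0.30 to 0.57) had intervals that included 0.

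In the vessel gates *Col3a1*, *Col1a1* and *Col18a1* were lower in SC300. *Col3a1* had 109 UMIs in 20 of 24 pericytes of Control and 38 UMIs in 13 of 23 pericytes of SC300, with a ratio of -1.78 (-2.35 to -1.23) in a gate where 11.9% of the 378 genes measured were called lower. Stromal markers summed to 4178 CPM and 5742 CPM and pericyte markers to 20712 CPM and 19696 CPM in the pericyte gate. In endothelial cells with pericytes, *Col3a1* was at 187 CPM (172 to 202) in Control and 118 CPM (108 to 129) in SC300 (-0.66, -0.84 to -0.49), where 3.92% of genes were called lower. There it was within 1.5-fold in cells thinned to 2000 UMIs, at -0.11, and in cells with at most 10% mitochondrial UMIs, at -0.26.

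*Col18a1* in endothelial cells with pericytes was at 60.7 CPM (52.7 to 69.7) in Control and 31.5 CPM (26.3 to 37.4) in SC300, with a ratio of -0.95 (-1.27 to -0.62). A UMI of it was found in 35.8% and 23.4% of these cells, and in 0.907% and 0.701% of microglia. *Col1a1* was lower in the gate as well, at 14.7 CPM and 5.33 CPM (-1.46, -2.25 to -0.71), but 3 cells held 85.7% of its 49 UMIs in Control. Stromal markers summed to 1219 CPM and 1071 CPM there, and their part was not tested.

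In the stromal gate itself, *Col18a1* had a ratio of 0.00 (-0.27 to 0.27), *Col1a1* one of -0.29 (-0.41 to -0.17) and *Col3a1* one of -0.32 (-0.49 to -0.16). None of the 11 collagen genes measured in stromal cells was over 1.5-fold apart, where 6.43% of all genes were called lower and 13.8% higher. *Col4a5* (-0.57, -0.92 to -0.22) and *Col15a1* (-0.49, -0.91 to -0.05) were lower beyond counting error but within 1.5-fold. Over the alternatives the ratio of *Col4a5* ran from -0.70 to -0.17, but that of *Col15a1* from -0.59 to 0.39. *Col18a1* ran from -0.71 to 0.27 and *Col3a1* from -0.91 to -0.28. Some of the 11 genes were thus over 1.5-fold apart at other settings. The gate held 13 cells in Control and 38 in SC300, and erythroid markers summed to 65.5 CPM and 3019 CPM in it.

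Of the collagen IV genes, *Col4a2* was called higher in 1 vessel gate, and no other was called in them. *Col4a1* had a ratio of 0.29 (0.22 to 0.36) in endothelial cells with pericytes, 0.08 (-0.06 to 0.21) in endothelial cells and 0.24 (-0.13 to 0.62) in pericytes. *Col4a4* had one of 0.00 (-0.15 to 0.14) in endothelial cells with pericytes and 0.34 (-0.23 to 0.91) in pericytes, and *Col4a5* one of 0.12 (-0.11 to 0.35) in endothelial cells with pericytes. *Col4a2* in endothelial cells had 30 UMIs in Control, or 23.9 CPM (16.1 to 34.1), and 44 UMIs in SC300, or 42.0 CPM (30.5 to 56.4). Its ratio was 0.82 (0.11 to 1.54), where 3.97% of genes were called higher, and 0.34 (-0.06 to 0.75) in endothelial cells with pericytes.

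Microglia, the resident macrophages of the brain, had 4 collagen genes that could be compared, of which 2 were lower in SC300, where 3.99% of all genes were. *Col4a4* had 122 UMIs in Control, or 36.6 CPM (30.4 to 43.7), and 79 UMIs in SC300, or 22.8 CPM (18.1 to 28.5), with a ratio of -0.68 (-1.11 to -0.26). *Col15a1* had 54 UMIs, or 16.2 CPM (12.2 to 21.2), and 34 UMIs, or 9.83 CPM (6.81 to 13.7), with a ratio of -0.72 (-1.39 to -0.08). *Col4a4* was found in 21.3% and 16.4% of microglia and *Col15a1* in 10.9% and 7.48%. In mature oligodendrocytes, at median depths of 19921 and 20765 UMIs, the shares were 0.272% and 0.868% for *Col4a4* and 0.545% and 1.30% for *Col15a1*. In microglia, endothelial markers summed to 29.1 CPM and 23.4 CPM, pericyte markers to 6.31 CPM and 6.65 CPM and stromal markers to 4.20 CPM and 5.78 CPM, and *Col4a1* was at 1.501 CPM and 2.02 CPM.

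In neurons, 2 genes were lower, where 3.10% of genes were, and 2 were higher, where 3.22% were. The lower genes were *Col11a2*, described above, and *Col2a1*, with a ratio of -0.79 (-1.67 to 0.06) and so not beyond counting error. *Col18a1* was at 4.40 CPM and 8.41 CPM (0.94, 0.44 to 1.45), and 3 neurons held 67.3% and 41.3% of its UMIs. *Col5a3* was at 2.03 CPM and 4.13 CPM (1.02, 0.30 to 1.79), and 3 neurons held 58.3% and 60.8% of its UMIs. These ratios therefore rest on few cells. In neurons with *Slc32a1* alone, *Col11a2* was at 14.2 CPM and 5.79 CPM, *Col5a3* at 1.44 CPM and 6.66 CPM and *Col18a1* at 2.08 CPM and 6.84 CPM. Neurons with *Slc17a6* alone had 8.08 CPM and 8.49 CPM, 3.09 CPM and 0.96 CPM, and 9.04 CPM and 10.4 CPM of these genes in turn. The difference between these subsets, which were chosen after values had been seen, was not tested. Precursor markers summed to 18.3 CPM and 25.6 CPM and mature oligodendrocyte markers to 33.4 CPM and 109 CPM in neurons. *Col25a1* had a ratio of -0.02 (-0.43 to 0.39).

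In the gate of the oligodendrocyte lineage where each was highest, *Col5a3*, *Col9a2* and *Col20a1* had ratios near 0. *Col5a3* in precursors had a ratio of 0.01 (-0.07 to 0.09), and none of the 6 collagen genes measured there was over 1.5-fold apart, where 2.66% of all genes were called lower and 2.40% higher. *Col9a2* in mature oligodendrocytes was at 0.01 (-0.18 to 0.21) and *Col20a1* in newly formed oligodendrocytes at -0.15 (-0.59 to 0.29). *Col5a3* in mature oligodendrocytes, at 13.2 CPM and 9.45 CPM, had a ratio of -0.48 (-0.89 to -0.06), within 1.5-fold but with an interval below 0. *Col16a1* was called lower in newly formed oligodendrocytes, at 41.9 CPM and 25.6 CPM (-0.71, -1.29 to -0.14), where 5.08% of genes were. Astrocyte markers summed to 557 CPM and 136 CPM in that gate and mature oligodendrocyte markers to 2923 CPM and 4234 CPM, and their part in the *Col16a1* value was not tested.

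In astrocytes, *Col16a1* had a ratio of -0.09 (-0.23 to 0.06), *Col5a2* one of 0.07 (-0.12 to 0.27) and *Col4a5* one of 0.04 (-0.13 to 0.21). *Col5a3* was called higher at a low level, 5.99 CPM in Control and 9.24 CPM in SC300 (0.63, 0.12 to 1.14), where 3.03% of genes were. Precursor markers, which mark the gate where *Col5a3* is highest, summed to 33.3 CPM and 49.1 CPM in astrocytes, and their part in the value was not tested.

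Genes that fold, trim, bind and break down collagen were described in the 4 gates with the most collagen UMIs (astrocytes, endothelial cells with pericytes, stromal cells and oligodendrocyte precursors). In astrocytes, none of the 14 measured genes of folding and modification was over 1.5-fold apart, and the list's median was 0.09 against 0.00 over all genes. *Ppib*, *Serpinh1* and *P4hb*, which encode a prolyl isomerase, the collagen chaperone HSP47 and a subunit of prolyl hydroxylase, had ratios of 0.09, -0.02 and 0.10. In endothelial cells with pericytes *Serpinh1* was at 488 CPM and 617 CPM (0.34, 0.25 to 0.43). In oligodendrocyte precursors none of the 25 measured genes of the 5 lists was over 1.5-fold apart, with *Ppib* at -0.08.

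Basement membrane partners were higher in part. In astrocytes, 3 of 7 measured members were higher and none lower, with a median of 0.45, where 3.03% of all genes were called higher and 2.20% lower and the median of all genes was 0.00. In endothelial cells with pericytes, 3 of 11 were higher and 1 lower, with a median of 0.19, where 3.01% of all genes were called higher and the median of all genes was -0.01. The astrocyte genes were laminin chains, with *Lamc1* at 6.67 CPM and 12.4 CPM (0.89, 0.43 to 1.37), *Lama2* at 8.36 CPM and 13.7 CPM (0.71, 0.29 to 1.14) and *Lama5* at 9.38 CPM and 14.5 CPM (0.63, 0.23 to 1.04). The 8 pericyte markers, all with a UMI, summed to 51.2 CPM and 79.4 CPM in astrocytes, and *Pdgfrb* alone held 46.6 CPM and 73.7 CPM of that. Their part in the laminin values was not tested. In endothelial cells with pericytes, the laminin chains *Lamb1* and *Lama4* were at 105 CPM and 174 CPM (0.73, 0.54 to 0.91) and at 67.0 CPM and 109 CPM (0.70, 0.47 to 0.94). *Nid2*, which ties laminin to collagen IV, was at 16.8 CPM and 28.4 CPM (0.76, 0.29 to 1.25), and *Lama1* was lower, at 18.2 CPM and 5.58 CPM (-1.71, -2.47 to -0.997). Stromal markers summed to 1219 CPM and 1071 CPM in endothelial cells with pericytes, and their part in these values was not tested. *Sparc*, a collagen-binding protein with the most UMIs of the list, had ratios of -0.19 in astrocytes and 0.19 in endothelial cells with pericytes, *Lamb2* of -0.08 and 0.03, and *Agrn* of 0.01 and 0.39.

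*Mmp14*, a membrane-bound protease that cleaves collagen, was the one gene of collagen degradation called in astrocytes and in endothelial cells with pericytes. The list had 7 and 8 measured genes in these gates, where 3.03% and 3.01% of all genes were called higher. It had 493 UMIs in astrocytes of Control and 840 UMIs in those of SC300, at 55.7 CPM and 87.2 CPM (0.65, 0.48 to 0.81). Endothelial cells with pericytes had 13.8 CPM and 29.3 CPM of it (1.09, 0.59 to 1.62). Among the most counted others, *Ctsl* had ratios of 0.08 and 0.16 in these gates, *Ctsb* of -0.13 and 0.04, and *Timp2*, an inhibitor of such proteases, of -0.05 and -0.14.

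Of the 3 trimming and cross-linking genes measured in astrocytes, *Loxl1*, at 5.31 CPM and 8.20 CPM (0.63, 0.09 to 1.18), and *Loxl3*, at 3.05 CPM and 5.40 CPM (0.82, 0.13 to 1.55), were higher. In astrocytes 3.03% of all genes were called higher. Endothelial cells with pericytes had 5 measured genes of this list, where 3.92% of all genes were called lower and 3.01% higher. There *Lox*, an enzyme that cross-links collagen fibrils, was lower, at 14.4 CPM and 5.09 CPM (-1.495, -2.31 to -0.73), and *Loxl2* higher, at 8.67 CPM and 15.0 CPM (0.79, 0.14 to 1.48). Stromal markers summed to 1219 CPM and 1071 CPM in that gate, and their part in the *Lox* value was not tested. *Bmp1*, a protease that trims procollagen, had a ratio of -0.21 in astrocytes, the cross-linker *Tgm2* one of 0.14 in endothelial cells with pericytes, and *Pcolce*, which aids procollagen trimming, one of -0.08 in stromal cells.

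Of the 4 receptors measured in astrocytes, *Lair1* alone was called lower, at 7.46 CPM and 4.15 CPM (-0.85, -1.45 to -0.26), where 2.20% of genes were. It is a receptor of immune cells. Microglial markers summed to 66.1 CPM and 62.3 CPM in astrocytes, and their part in the *Lair1* value was not tested. *Itgb1*, the shared chain of collagen-binding integrins, had ratios of 0.01 in astrocytes and 0.05 in endothelial cells with pericytes, the receptor kinase *Ddr1* one of -0.16 in astrocytes, and the integrin chain *Itga1* one of -0.07 in endothelial cells with pericytes. In stromal cells 5 of the 29 measured genes of the 5 lists were over 1.5-fold apart, 3 higher and 2 lower in SC300, each with an interval that included 0. Both counts were near the background of the gate, where 6.43% of all genes were called lower and 13.8% higher.

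**Figure D5:**
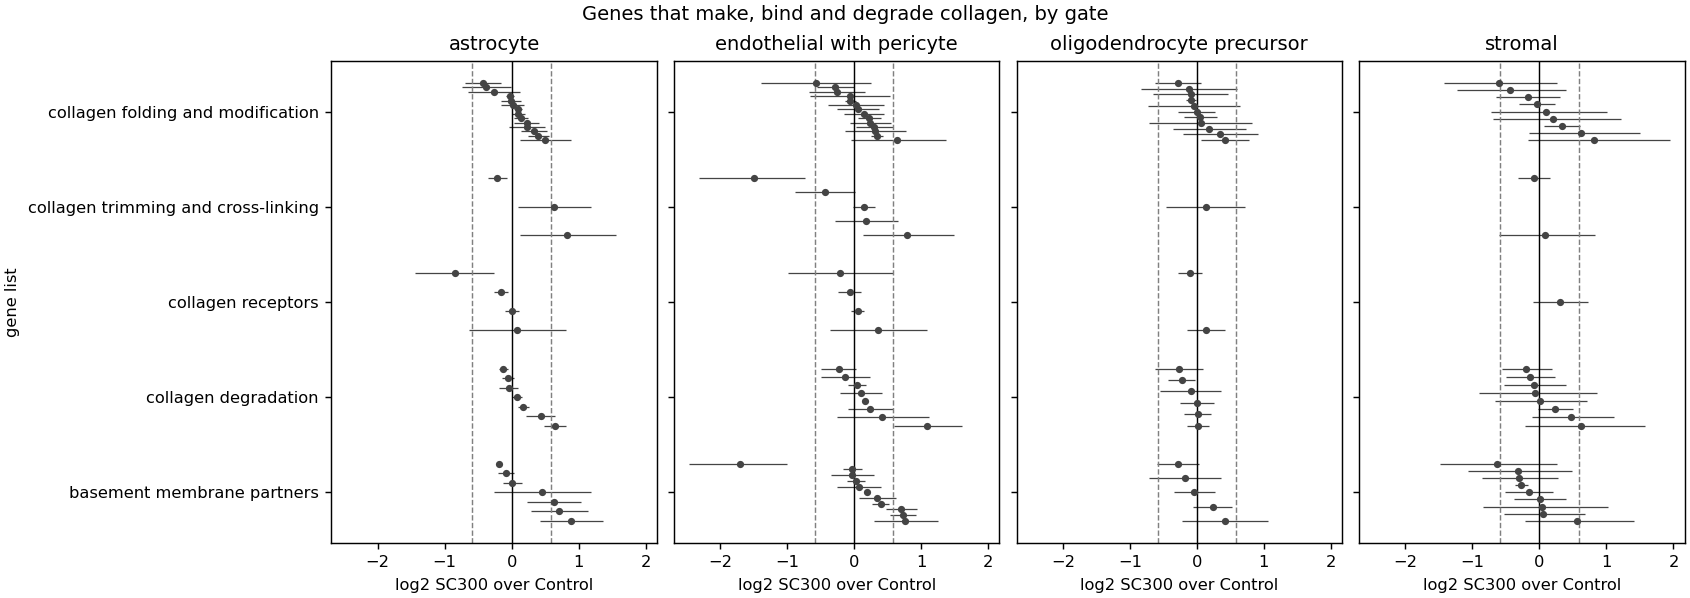
Log2 ratio of SC300 over Control for the measured genes of 5 lists in 4 gates, with points for single genes, exact 95% counting intervals as bars and dashed lines at 1.5-fold. Basement membrane partners reach 0.89 in astrocytes (*Lamc1*) and run from -1.71 (*Lama1*) to 0.76 (*Nid2*) in endothelial cells with pericytes, and no point of oligodendrocyte precursors lies beyond the dashed lines.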

How the data were processed

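The files hold 1 table of UMI counts per library, which the authors deposited as gene by barcode matrices from 10x Genomics 3′ sequencing (v3 chemistry). Per the methods, reads were aligned and counted against a rat Ensembl96 transcriptome with Cell Ranger (version 3.0.1 in the submitters' processing notes). The genome build was not given in the sources used here. Barcodes with at least 200 detected genes were kept, the minimum the study names, which left 4296 of 4488 in Control and 4379 of 4524 in SC300. The methods state 2 pairs of cell numbers, one equal to the deposited barcodes and one below the cells kept here. Deposited totals were 52004789 UMIs in Control and 57013099 in SC300.

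A cell entered a gate when at least 3 markers of a list had a UMI and the mean z score of that list led the next by at least 0.25. Cells with at least 3 markers of both the endothelial and the pericyte list formed a gate of their own. Ependymal cells and tanycytes were then split by their scores, and 94 of 512 such cells lay within 0.25 of the limit between them. The members and lists were chosen with earlier results of these data known, and the scoring rule of the gates was set after marker values, not collagen values, had been seen. Doublets were kept, and 70 and 73 barcodes that Scrublet called were left out in an alternative. UMIs were summed per gate and library and divided by the total to give CPM. Intervals were exact at 95% (ratios by the conditional binomial, shares by Clopper-Pearson, CPM by Poisson). They cover counting error only, of cells for shares of cells and of UMIs otherwise. A gene was compared where it had at least 50 UMIs over both libraries in a gate and was called when over 1.5-fold apart. Where a count was 0, 3 UMIs set the upper level. No test, p-value or standard error was computed, since each group is 1 library. The scripts were tested on simulated counts with known changes.

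Collagen genes with at least 50 UMIs in a gate were named with their values. Of each pathway list, the 3 members with most UMIs and those over 1.5-fold apart beyond the interval in the gates rich in collagen UMIs were named. All 43 collagen genes matched the RefSeq gene table of GRCr8, which gave the overlaps (without regard to strand) and neighbours, and 34 matched its promoter table. *Col6a3*, *Col21a1* and 4 of the 67 list genes were not analysed here. The alternatives were other scalings, minimums, mitochondrial limits and gates, Scrublet, thinning to 2000 UMIs, equal weight of cells, and leaving out the 3 richest cells. Leaving out shared barcodes, and cells of other gates rich in *Agt*, were added after the data had been seen. The software was Python 3.11.15 with numpy 2.4.6, scipy 1.17.1, pandas 2.3.3, scanpy 1.11.5 and matplotlib 3.10.9.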

Additional observations from a re-analysis of the deposited data

Results flagged for a closer look

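*Col18a1* was over 1.5-fold apart in opposite directions in 2 gates, with a log2 ratio of -0.95 in endothelial cells with pericytes and 0.94 in neurons. This difference between gates was not tested, and in neurons of Control 3 cells held 67.3% of the UMIs.

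Barcodes outside the 13 gates also held collagen UMIs. Barcodes that met no marker rule summed to 633 CPM of collagen genes in Control and 518 CPM in SC300. Of this, *Col11a2* held 252 CPM (759 UMIs) in Control and 152 CPM (586 UMIs) in SC300. Its lower level in SC300 was thus not limited to the gates where it was called. Which cells these barcodes came from was not tested. Barcodes gated by erythroid markers summed to 441 CPM and 674 CPM.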

How the results depend on the processing

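Of 14 alternatives, 12 were fixed with the design and 2 were added after the data had been seen. Over 969 values of single genes, 915 moved by less than their counting interval, 53 moved further and 1 reversed. The 915 include settings that change the counts little, such as leaving out shared barcodes, where all 92 values stayed within the interval. With at most 10% mitochondrial UMIs 15 of 39 values moved further. In thinned cells 10 of 32 did, and 15 of 92 with every cell weighted alike. Of the 20 called pairs, 10 stayed over 1.5-fold apart in the same direction under every alternative that could give a value. Some of these 10 had few UMIs and so fewer such values. There were 7 for *Col11a2* in endothelial cells and 8 for *Col11a1* in tanycytes. *Col5a3* in neurons and *Col1a1* in endothelial cells with pericytes had 9 each. An alternative without a value is no check of a pair. The reversed value was *Col11a2* in neurons, at 0.086 with every cell weighted alike.

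The 13 lower pairs became 6 with at most 10% mitochondrial UMIs, 4 with cells thinned to 2000 UMIs and 23 with a minimum of 20 UMIs. The 7 higher pairs became 4 with at most 10% mitochondrial UMIs, 4 where the winning list had to lead by 2 markers, 1 with thinned cells, 19 with a minimum of 20 UMIs and 4 with a minimum of 100 UMIs. The 18 genes with the same highest gate became 9 with thinned cells. Fewer pairs could be compared with at most 10% mitochondrial UMIs (39) and with thinned cells (32), against 92 as reported, so these counts are over fewer pairs. A minimum of 20 UMIs let in more pairs and one of 100 UMIs fewer. The share over all genes is not given at these other settings, so their counts are not read as results about collagen genes.

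Calls were also lost for *Col2a1* in neurons (-0.27 with cells weighted alike), *Col4a4* in microglia (-0.29 thinned), *Col5a3* in astrocytes (0.32 weighted alike), *Col16a1* in newly formed oligodendrocytes (-0.37 weighted alike) and *Col18a1* in neurons (0.47 with the list ahead by 2 markers). The cause of these changes was not tested. *Col11a2* in endothelial cells was at -0.998 with at most 20% mitochondrial UMIs and -2.81 without called doublets.

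No paired analysis was possible because the groups share only replicate number 1. With 1 library from 3 pooled rats per group, library, batch and treatment cannot be told apart, and no interval covers variation between animals. Levels under 50 UMIs in a gate are not read as differences.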
